A study of Mus musculus with 34 samples.

Results

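The comparison concerned the prefrontal cortex of mice heterozygous for a mutation of Myt1l, set against wild-type prefrontal cortex. It took the 5 libraries labelled heterozygote and the 6 labelled wild type, 11 of the 34 libraries of a study that also covered hippocampus and striatum. All mice were untreated C57BL/6J males, aged 56 days after birth. The labels describe neither the allele nor which part of the gene it alters, and they do not say that each library came from its own animal. If they did not, the p-values below measure a spread that may be technical. Of 18548 genes in the deposited table, the 16667 with a mean of at least 10 normalized counts over the 11 libraries were tested.

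The product of Myt1l is a neuronal DNA-binding protein with zinc fingers that recruits repressor complexes to genes of other cell fates. Its relatives Myt1 and St18 bind the same short DNA element. In people, loss of 1 copy of MYT1L causes a neurodevelopmental syndrome with intellectual disability and autistic features.

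Heterozygote libraries summed to 29158793 to 29761281 normalized counts each, and the wild-type ones to 29092563 to 29798959. The reads behind them, estimated by taking the commonest low value of each library as 1 read, were 23999000 to 39231000 per library. Wild-type replicate 1 stood apart in myelin and meningeal genes. The column of wild-type replicate 6 carries the code 31-67M, which stands on libraries labelled heterozygote in hippocampus and striatum. The labels were followed here.

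Myt1l RNA was not lower in the libraries labelled heterozygote. Myt1l (ENSMUSG00000061911, GRCm38 chromosome 12, 29528384 to 29923213, plus strand) was at 6462, 6954, 6388, 7525 and 6772 normalized counts in the 5 heterozygote libraries, against a lowest value of 5578, a median of 6602 and a highest of 7992 in wild type. Every heterozygote library lay inside the wild-type range. Heterozygotes averaged 6820 ± 456 (SD, n = 5), and the wild-type mean was 6650 ± 842 (SD, n = 6). The log2 difference, heterozygote minus wild type on log2(value + 1), was 0.04 (SE 0.08, 95% interval -0.12 to 0.20, adjusted p = 0.988, limma). A loss of 1 log2 unit lies outside that interval. A gene-level count does not tell a mutant transcript from a normal one, so Myt1l RNA gave no check of the labels. Without wild-type replicate 6 the difference was 0.10.

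Myt1 was at 376, 208, 216, 439 and 246 normalized counts in heterozygotes, and at 229 to 388 with a median of 271 in wild type. Its log2 difference was 0.03 (SE 0.19). St18 was at 162, 199, 130, 118 and 195 in heterozygotes, and at 117 to 338 with a median of 169 in wild type, a difference of -0.18 (SE 0.25). The groups overlapped in both genes. Of the 13 tested members of the list of MYT genes and their repressor partners, 5 lay above 0 and 8 below, with a median of -0.02. Without wild-type replicate 6, 7 lay above and 6 below, with a median of 0.0097. Hdac1, a histone deacetylase of repressor complexes, had the highest difference of that list among members with a mean of at least 100, at 0.04 (SE 0.08).

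**Figure D1:**
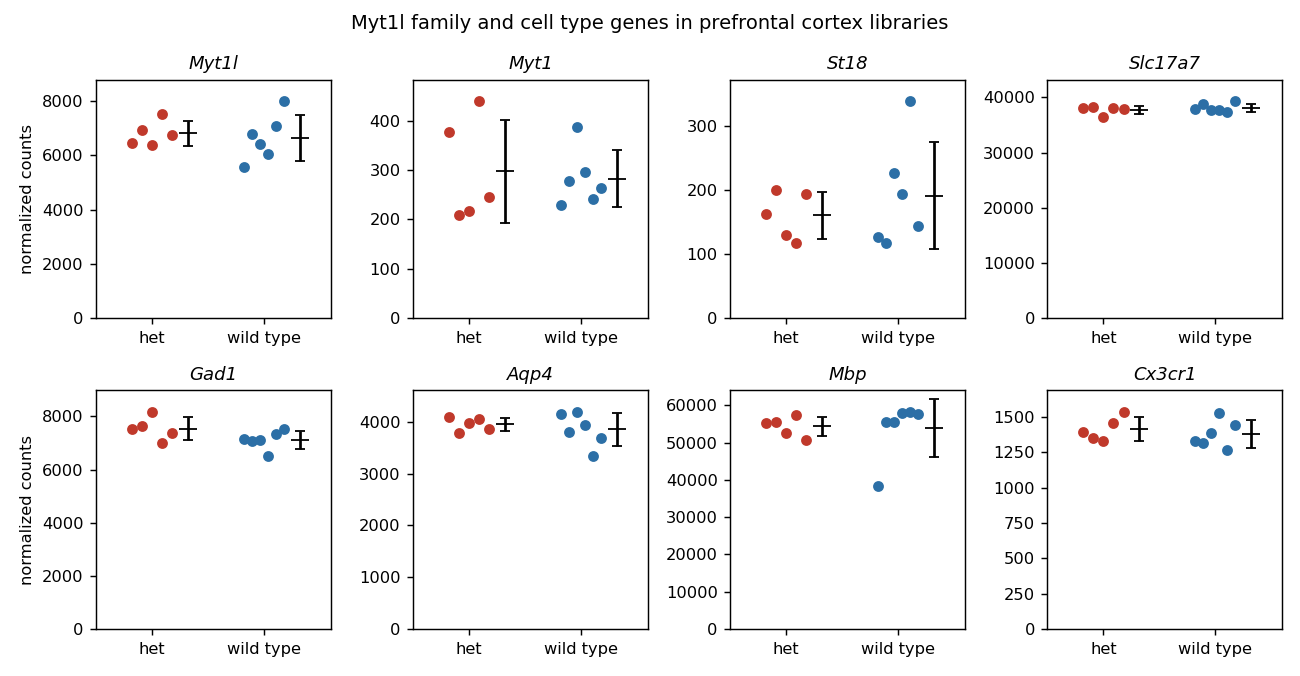
Normalized counts of Myt1l, its 2 relatives and 5 cell type genes, with heterozygote libraries (red, left) and wild-type libraries (blue, right) as points and the mean with SD as a black bar. The groups overlap in each panel, and Mbp is low in 1 wild-type library, at 38376.

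No gene passed the test in prefrontal cortex. At an adjusted p under 0.05 (limma, Benjamini-Hochberg over 16667 genes) 0 genes were called, 0% of those tested, and the smallest adjusted p was 0.618. At an unadjusted p under 0.05 there were 833 genes, and 833 is also the number that a threshold of 0.05 gives by chance. Of these, 408 (2.45%) were higher and 425 (2.55%) lower in heterozygotes. All heterozygote libraries lay above all wild-type libraries in 33 genes (0.198%) and below them in 44 (0.264%). Whatever their p, 8117 genes (48.7%) lay above 0 and 8550 below. These shares are the background for every count of list members below.

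The differences themselves were small. The median over all genes was -0.0031, and the 5th and 95th percentiles were -0.26 and 0.27. Among genes with means of 3000 and over the median was -0.01. Only 474 genes (2.84%) differed by more than 0.5 log2 units, and 79 by more than 1, of which 70 had a mean under 100 normalized counts. The 95% interval lay wholly within 0.5 of 0 for 12479 genes (74.9%) and within 1 of 0 for 15489 (92.9%). The level of a gene set this precision. The median half-width of the interval was 0.71 at means of 10 to 30 and 0.09 at means of 3000 and over. The spread within groups was alike, with a median SD on the log2 scale of 0.136 in heterozygotes and 0.143 in wild type.

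**Figure D2:**
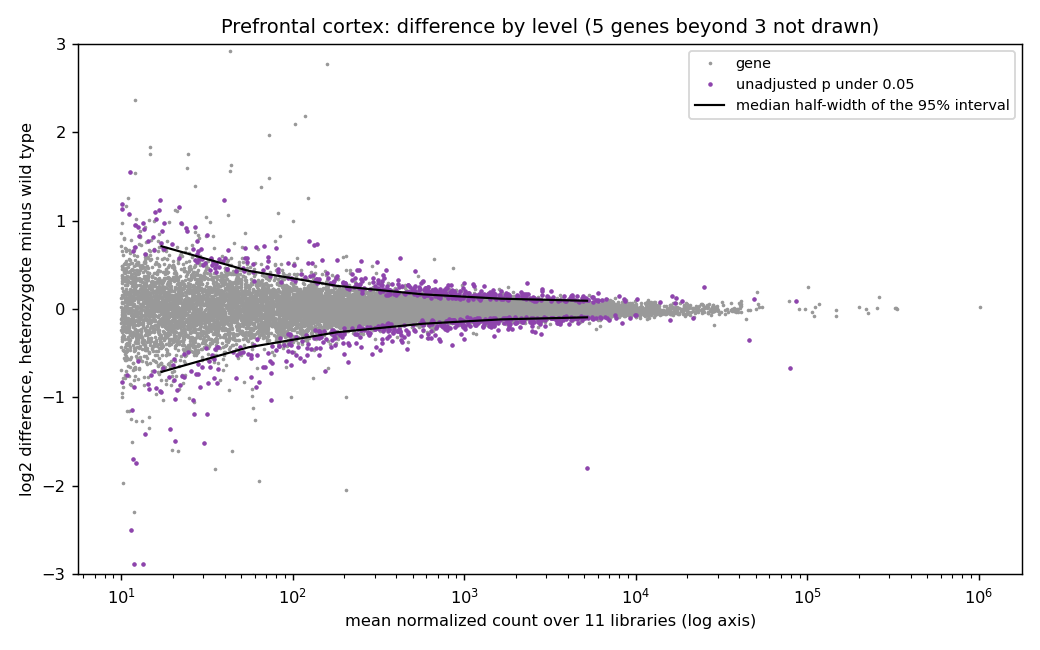
Log2 difference, heterozygote minus wild type, of each gene against its mean normalized count (log axis), with genes at an unadjusted p under 0.05 in purple and the median half-width of the 95% interval as black lines. The cloud narrows with level and is centred on 0, and 5 genes beyond 3 are not drawn.

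The 16 genes named next had means of at least 100, 8 in each direction. They were those whose interval bound nearest to 0 lay farthest from it. None passed the test over all genes. Sox13, a SOX transcription factor, was at 287, 258, 298, 253 and 286 normalized counts in heterozygotes, against 189 to 229 with a median of 199 in wild type. The groups did not overlap. The log2 difference was 0.44 (SE 0.08, adjusted p = 0.618, limma), and it was 0.43 without wild-type replicate 6. Fam228b was at 180, 222, 209, 143 and 131 in heterozygotes and at 80.0 to 119 with a median of 110 in wild type, also without overlap, a difference of 0.74 (SE 0.16). Katna1, the catalytic subunit of the microtubule-severing enzyme katanin, was at 286, 302, 276, 321 and 306 in heterozygotes and at 214 to 255 with a median of 236 in wild type. Its difference was 0.35 (SE 0.08).

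The other 5 of the higher set overlapped between groups. Aloxe3, a lipoxygenase of the epidermis, was at 0.73 (SE 0.17), and Mtmr11, a myotubularin relative, at 0.56 (SE 0.15). Rbm19, an RNA-binding protein of ribosome assembly, was at 0.54 (SE 0.16). Erap1, which trims peptides for MHC class I, was at 0.45 (SE 0.13), and 4430402I18Rik at 0.50 (SE 0.16).

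Abcb8, a transporter of the inner mitochondrial membrane, had the smallest p among the lower genes named here. It was at 710, 737, 734, 680 and 725 normalized counts in heterozygotes, against 855 to 1151 with a median of 900 in wild type. The groups did not overlap, and the log2 difference was -0.40 (SE 0.08, adjusted p = 0.618, limma). Dctpp1, which degrades dCTP and its derivatives, was at 142, 132, 147, 142 and 137 in heterozygotes, against 159 to 213 with a median of 195 in wild type, a difference of -0.43 (SE 0.10). Gm1673 was at 225, 226, 223, 201 and 172 in heterozygotes, against 235 to 308 with a median of 289 in wild type, a difference of -0.43 (SE 0.10). Neither gene overlapped between groups. Rfc5, a subunit of the clamp loader of DNA replication, was at -0.51 (SE 0.14), and Spink10, a protease inhibitor, at -0.60 (SE 0.16), both with overlap.

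Hist2h2aa2, Gm15387 and mt-Co3 can share reads with related sequences, so their values call for caution. Whether shared reads shaped these values was not tested. Hist2h2aa2, a histone H2A gene with a near-identical neighbour, was listed at 147, 0, 0, 150 and 0 in heterozygotes and at 129 to 164 in wild type. The processed pseudogene Gm15387 was listed at 0 in 4 heterozygote libraries and at 189 in the other, and at 0 to 338 in wild type. mt-Co3, a mitochondrially encoded subunit of cytochrome oxidase, was at 66202, 48955, 43016, 88165 and 55950 in heterozygotes and at 77980 to 129649 with a median of 91744 in wild type, a difference of -0.66 (SE 0.20, adjusted p = 0.977, limma). Its difference was -0.87 (SE 0.26) in hippocampus and -0.9999 (SE 0.40) in striatum, each from that region's own libraries.

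**Figure D3:**
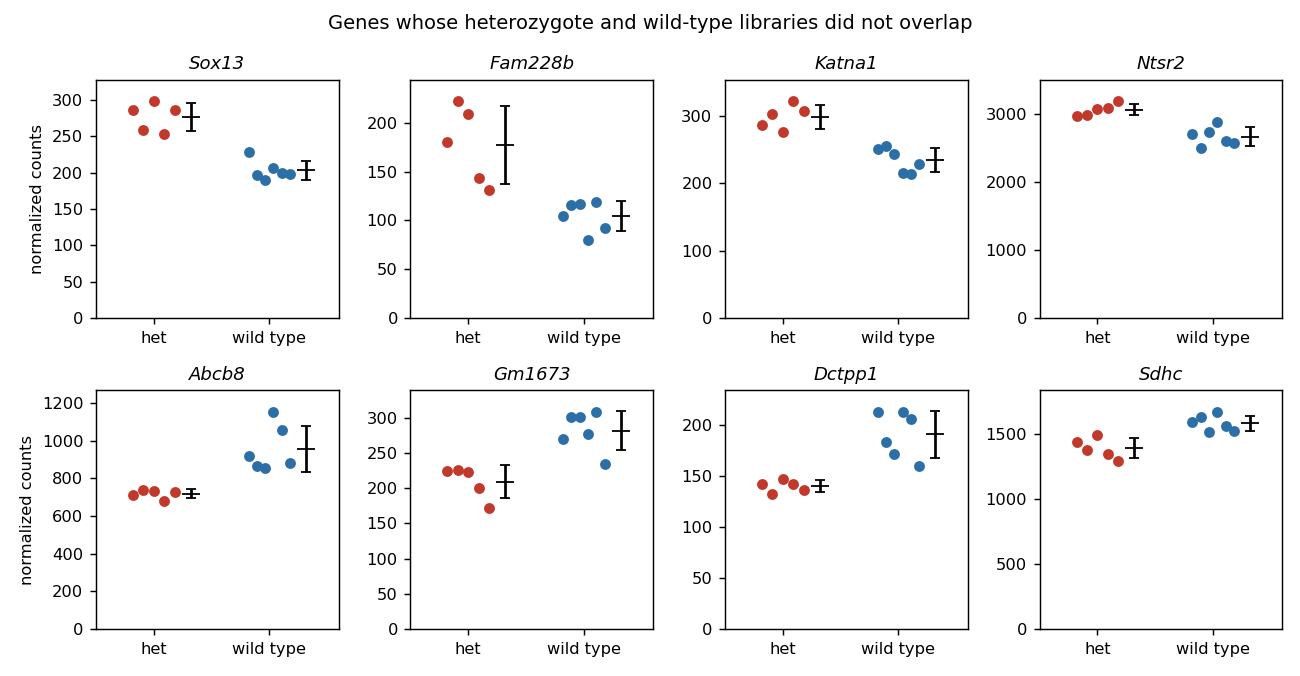
Normalized counts of 8 genes whose 5 heterozygote libraries (red, left) and 6 wild-type libraries (blue, right) do not overlap, with the mean and SD as a black bar. The upper 4 genes are higher in heterozygotes and the lower 4 lower, none with an adjusted p under 0.618; Ntsr2 and Sdhc were chosen after their values were seen.

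Genes of 18 cell type lists and 29 function lists were then described together. Of 1010 different members, 980 were tested, 18 fell below the minimum mean and 12 had no row in the table. Of the tested members, 32 were higher and 29 lower at an unadjusted p under 0.05, or 6.22% in all, and none passed over all genes. All heterozygote libraries lay above all wild-type libraries in 4 members and below them in 1. List medians ran between -0.15 and 0.09, and the mean log2 level of every list overlapped between the groups. The interval lay within 0.5 of 0 for 90.4% of the tested members. Leaving out 1 library at a time turned the sign of the median in 28 of the 47 lists for at least 1 library left out. Wild-type replicate 6 turned 13 of them, heterozygote replicate 2 turned 10, and each of the other libraries turned 5 to 8. The medians and counts over such fits are given below as leave-one-out ranges where they bear on a list's direction. In bulk tissue, fewer cells of a type and less RNA per cell cannot be told apart.

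**Figure D4:**
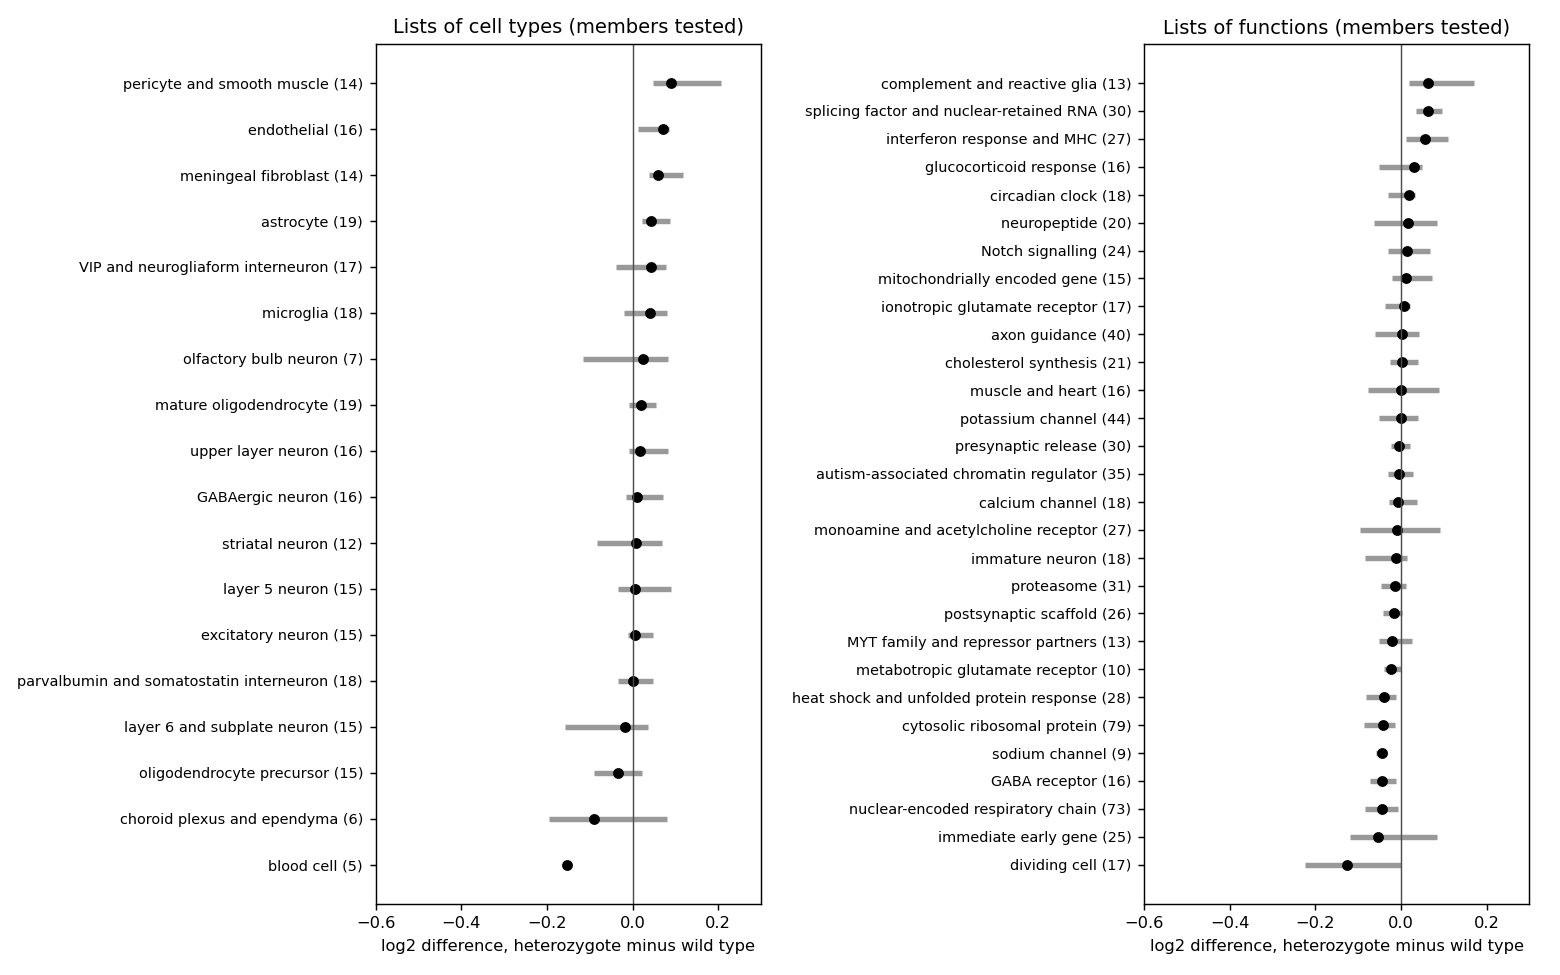
Median log2 difference, heterozygote minus wild type, of each list (point) with the quartiles of its members (grey bar), for cell type lists (left) and function lists (right), with the number of members tested in brackets. Medians lie between -0.15 (blood cell) and 0.09 (pericyte and smooth muscle).

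Excitatory neuron genes were close to 0. Slc17a7, the vesicular glutamate transporter of cortical excitatory neurons, was at 38048, 38288, 36471, 38009 and 37928 normalized counts in heterozygotes and at 37435 to 39276 with a median of 37829 in wild type, a difference of -0.02 (SE 0.03). Over the 15 tested members, 9 lay above 0 and 6 below, none at an unadjusted p under 0.05, with a median of 0.0046. The leave-one-out median was -0.0013 to 0.03, and without wild-type replicate 6 there was 1 member higher and 1 lower at that level. Tbr1, a transcription factor of glutamatergic neurons, was highest of those with a mean of at least 100 at 0.07 (SE 0.06), and Itpka, an inositol trisphosphate kinase, lowest at -0.07 (SE 0.05).

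The medians of the layers were 0.02 for upper layers (11 of 16 above 0), 0.0061 for layer 5 (8 of 15) and -0.02 for layer 6 and subplate (6 of 15). Among upper layer genes, Cux2, a homeobox factor, was at 0.11 (SE 0.07) and Calb1, the calcium buffer calbindin, at -0.10 (SE 0.04), the only member with an unadjusted p under 0.05. In layer 5, Fezf2, the factor that specifies subcerebral projection neurons, was at 0.14 (SE 0.07), and Bcl11b at -0.0016 (SE 0.09). The layer 6 list held the widest values. Nr4a2, an orphan nuclear receptor of subplate neurons, was at 455, 402, 314, 403 and 391.98 in heterozygotes and at 374 to 613 with a median of 508 in wild type, a difference of -0.32 (SE 0.12). Col5a1, a collagen chain, was at 0.29 (SE 0.12), and Foxp2 at -0.02 (SE 0.16). The groups overlapped in these genes. The layer 6 median was 0.02 without wild-type replicate 6, with 8 of 15 above 0. Without wild-type replicate 1 it was -0.10, with 4 of 15 above 0 and 3 lower at an unadjusted p under 0.05, where the upper layer median was 0.0089 and the layer 5 median 0.01. The difference between layers was not tested.

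Inhibitory neuron genes gave list medians between 0.0014 and 0.04. Gad1, which makes GABA, was at 7512, 7638, 8164, 7016 and 7388 in heterozygotes and at 6516 to 7526 with a median of 7131 in wild type, a difference of 0.08 (SE 0.04). Gad2 was at -0.02 (SE 0.04) and the vesicular GABA transporter Slc32a1 at 0.01 (SE 0.06). The GABAergic list had 10 of 16 members above 0 and a median of 0.01, with a leave-one-out range of -0.0054 to 0.04. Pvalb and Sst, markers of the 2 main interneuron classes, were at 0.07 (SE 0.12) and 0.0042 (SE 0.06), and Vip at 0.01 (SE 0.05). The parvalbumin and somatostatin list had 10 of 18 above 0 and a median of 0.0014. The VIP and neurogliaform list had 12 of 17 above 0 and a median of 0.04, which was -0.0066 without wild-type replicate 3. None of the 51 tested members of the 3 inhibitory lists had an unadjusted p under 0.05, while without wild-type replicate 6 the GABAergic list had 1 higher and 1 lower.

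Astrocyte genes lay mostly above 0, with 15 of 19 members above and a median of 0.04. In all, 4 members were higher at an unadjusted p under 0.05 and none lower. Beside Sox13, these were Ntsr2, a neurotensin receptor, Agt, the angiotensin precursor, and Slc4a4, a bicarbonate transporter, the last 3 named after their values were seen. Ntsr2 was at 2978, 2992, 3078, 3094 and 3187 in heterozygotes and at 2504 to 2881 with a median of 2658 in wild type, without overlap, a difference of 0.20 (SE 0.04, adjusted p = 0.618, limma). Sox13 and Ntsr2 were known from earlier results when the list was written. Without them 13 of 17 lay above 0, 2 were higher at that level, and the median was 0.04. With all members and 1 library left out at a time, 13 to 18 of 19 lay above 0, 2 to 6 were higher, and the median was 0.03 to 0.07. With only the libraries whose column codes begin with 35, 12 of 19 lay above 0, 3 were higher, and the median was 0.03. The defining markers Aqp4, a water channel, Aldh1l1 and Gja1 were at 0.04 (SE 0.05), 0.06 (SE 0.05) and 0.02 (SE 0.04). The mean log2 level of the list ran between 11.67 and 11.75 among heterozygotes and between 11.57 and 11.74 among wild-type libraries.

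Microglia genes had 13 of 18 members above 0 and a median of 0.04. Csf1r, the receptor that keeps microglia alive, was at 2767, 2908, 3608, 3087 and 3042 in heterozygotes and at 2205 to 3406 with a median of 2600 in wild type, a difference of 0.23 (SE 0.10). Tmem119, another microglia marker, was at -0.14 (SE 0.07), so that members of the list lay on both sides of 0. The leave-one-out median was 0.0095 to 0.06. With only the libraries whose column codes begin with 35, 7 of 18 lay above 0 and the median was -0.02. Oligodendrocyte precursor genes had 4 of 15 above 0 and a median of -0.03, with a leave-one-out range of -0.08 to -0.0025. Pdgfra, their defining receptor, was at 0.05 (SE 0.07), and C1ql1 at -0.23 (SE 0.11).

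The myelin genes depended most on 1 library. Mbp, the myelin basic protein, was at 55226, 55585, 52706, 57362 and 50796 in heterozygotes and at 38376 to 58192 with a median of 56692 in wild type. The lowest value was that of wild-type replicate 1. Over the list 13 of 19 members lay above 0 with a median of 0.02. Without that library 3 of 19 did, with a median of -0.08 and 3 members lower at an unadjusted p under 0.05. Without heterozygote replicate 2, 9 of 19 lay above 0 with a median of -0.00017, and without heterozygote replicate 4, 9 of 19 with -0.0004. With only the libraries whose column codes begin with 35, 17 of 19 lay above 0. In that fit 2 members were higher at an unadjusted p under 0.05 and the median was 0.12.

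Vascular genes lay above 0 more often than below. In the endothelial list 12 of 16 members were above 0, 3 of them at an unadjusted p under 0.05, and the median was 0.07 (leave-one-out 0.04 to 0.09). With only the libraries whose column codes begin with 35, 11 of 16 were above 0, 0 at that level, and the median was 0.04. Abcb1a, the drug efflux pump of the blood-brain barrier, was at 1601, 1447, 1638, 1677 and 1712 in heterozygotes and at 1300 to 1548 with a median of 1458 in wild type, a difference of 0.16 (SE 0.06). The tight junction gene Cldn5 was at -0.04 (SE 0.10). The pericyte and smooth muscle list had 12 of 14 above 0 and a median of 0.09, and without wild-type replicate 1 it had 14 of 14 and 0.14. Its lowest leave-one-out median was 0.06, without heterozygote replicate 1. Among its members were Tagln at 0.31 (SE 0.17), Acta2, the smooth muscle actin, at 0.21 (SE 0.14) and the pericyte receptor Pdgfrb near 0. Meningeal fibroblast genes had 11 of 14 above 0 and a median of 0.06. Without heterozygote replicate 1 there were 7 of 14 and the median was -0.0051, and without wild-type replicate 1 there were 11 of 14, 2 of them at an unadjusted p under 0.05, and the median was 0.14. That library held the highest meningeal level of the heterozygotes, at 8.52, and wild-type replicate 1 the highest of wild type, at 8.59, on the log2 scale of the list mean. The part of meninges and vessels in the dissections in these values was not tested.

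Genes of neighbouring tissue varied widely between libraries of both genotypes. In mean log2 level, the striatal list ran between 7.76 and 8.68 among heterozygotes, and between 7.46 and 8.93 among wild-type libraries. Drd2, the dopamine receptor of indirect pathway neurons, was at 154, 34.6, 117, 81.1 and 49.5 normalized counts in heterozygotes and at 12.9 to 200.4 in wild type. Ttr, the transthyretin of choroid plexus, was at 43.5, 14.6, 10.1, 14.9 and 10.97 in heterozygotes and at 15.8 to 69.5 with a median of 41.6 in wild type, a difference of -1.19 (SE 0.39). Only 6 of 12 members of the choroid plexus list reached the minimum mean.

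**Figure D5:**
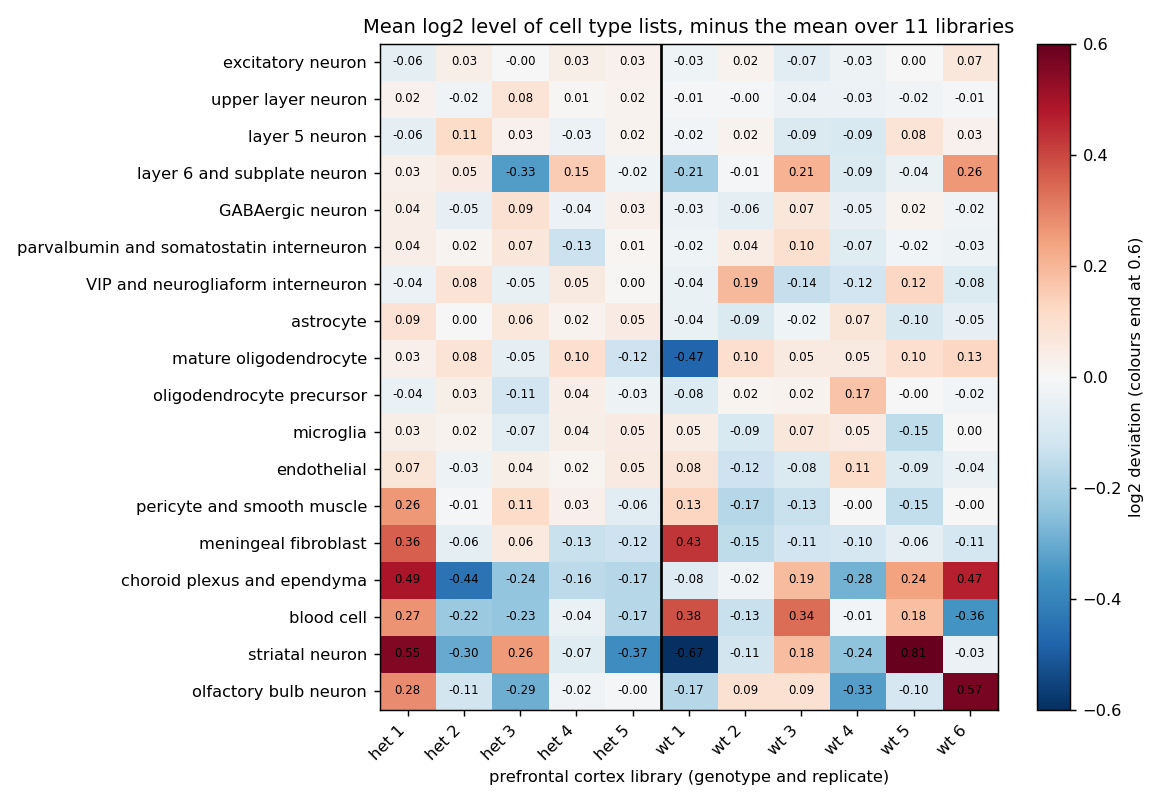
Mean log2 level of each cell type list in each library, minus its mean over the 11 libraries, with heterozygotes left of the line and wild type right of it. The striatal neuron list spans the widest range, with -0.67 in wild-type replicate 1 and 0.81 in wild-type replicate 5. The mature oligodendrocyte list is at -0.47 in wild-type replicate 1, and the meningeal list is high there and in heterozygote replicate 1.

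Among function lists, ion channels and transmitter receptors were close to 0. The sodium channel list had 2 of 9 members above 0 and a median of -0.04 (leave-one-out -0.06 to -0.03). Its members Scn1a and Scn2a were at -0.04 (SE 0.07) and -0.03 (SE 0.08). The median was -0.0073 for 18 calcium channel genes and -0.00032 for 44 potassium channel genes, where Kcna3 was lowest among abundant members at -0.27 (SE 0.11). GABA receptor genes had 4 of 16 above 0 and a median of -0.04 (leave-one-out -0.07 to -0.02). With only the libraries whose column codes begin with 35, 9 of 16 lay above 0 and the median was 0.0028. The sodium channel list then had 4 of 9 above 0 and a median of -0.0047. Ionotropic glutamate receptor genes had 9 of 17 above 0, and Grin1, the obligate NMDA receptor subunit, was at -0.02 (SE 0.03). Htr1a, an inhibitory serotonin receptor, was at 347, 386, 358, 419 and 394 in heterozygotes and at 377 to 519 with a median of 474 in wild type, a difference of -0.26 (SE 0.09).

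Synaptic genes had the narrowest intervals of the 47 lists. The median half-width of the interval was 0.08 over 30 presynaptic genes and 0.09 over 26 postsynaptic scaffold genes. Snap25, a SNARE protein of vesicle fusion, was at 86459, 89466, 93104, 88918 and 86384 in heterozygotes and at 81893 to 96198 with a median of 89937 in wild type. The presynaptic median was -0.0041 with 12 of 30 above 0, and the postsynaptic median -0.02 with 8 of 26 above 0. None of these 56 members had an unadjusted p under 0.05, and each interval lay within 0.5 of 0. Without wild-type replicate 6 the presynaptic list had 20 of 30 above 0, 2 of them at an unadjusted p under 0.05, and a median of 0.01, and the postsynaptic list had 12 of 26 above 0, 1 member lower at that level and a median of -0.0017. Dlg4, the scaffold PSD-95, was at -0.02 (SE 0.03), and Lrrc7 was lowest at -0.15 (SE 0.07).

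Immediate early genes, which follow neuronal activity, differed between libraries of 1 genotype. Arc was at 6204, 7726, 8425, 2600 and 2785 in heterozygotes and at 3577 to 8918 with a median of 5991 in wild type, a difference of -0.23 (SE 0.40). The last 2 heterozygote libraries were also the lowest for Fos, at 466 and 332, and for Junb, at 731 and 674. The list had 10 of 25 above 0 and a median of -0.05. Its direction turned with single libraries, with 13 of 25 above 0 and a median of 0.0033 without wild-type replicate 6, and a leave-one-out range of -0.11 to 0.04. Fosb was at 0.21 (SE 0.09).

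The immature neuron, Notch signalling, and muscle and heart lists, fetal and non-neuronal programmes that MYT1L is known to repress, gave no common direction. Of the other non-neuronal lists, those of astrocyte, microglia and vascular genes lay mostly above 0. Those of oligodendrocyte precursor, choroid plexus and blood cell genes lay mostly below 0. The immature neuron list had 8 of 18 above 0 and a median of -0.01, with Dcx at -0.01 (SE 0.07), Sox11 at 0.04 (SE 0.09) and Marcksl1 at -0.17 (SE 0.07). Notch signalling had 14 of 24 above 0 and a median of 0.01. Notch4, the Notch receptor of endothelium, was at 359, 689, 678, 571 and 305 in heterozygotes and at 262 to 424 with a median of 321 in wild type, a difference of 0.58 (SE 0.22), while Notch1 was at 0.07 (SE 0.06) and its target Hes1 at -0.03 (SE 0.19). Muscle and heart genes had 8 of 16 above 0. The list of autism-associated chromatin regulators was not counted among the programmes named above. In it 17 of 35 lay above 0, with Chd8 at 0.05 (SE 0.06) and Mbd5 at 0.15 (SE 0.05).

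Genes of oxidative phosphorylation encoded in the nucleus lay mostly below 0. Of 73 members, 58 were below 0, 9 of them at an unadjusted p under 0.05, with none higher at that level, and the median was -0.04. Wild-type replicate 1 was high for this list, at a mean log2 level of 11.18 where the other wild-type libraries averaged 11.04. Without it 49 of 73 were below 0, 5 lower and 2 higher at an unadjusted p under 0.05, and the median was -0.02. Over all libraries left out in turn, 4 to 15 members were lower at that level. Sdhc, a subunit of complex II named after its values were seen, was at 1437, 1381, 1497, 1352 and 1294 in heterozygotes and at 1519 to 1671 with a median of 1579 in wild type. The groups did not overlap, and the difference was -0.19 (SE 0.05, adjusted p = 0.734, limma). Uqcrq, a subunit of complex III, was at -0.23 (SE 0.07), Cox4i1 at -0.06 (SE 0.05) and Ndufv3 at 0.11 (SE 0.07). Without the 2 members known from earlier results, 56 of 71 were below 0 and 7 lower at an unadjusted p under 0.05. Genes of the mitochondrial genome had 10 of 15 above 0 and a median of 0.01, but the sign of that median turned under 8 of the 21 alternatives. Of these 8, the fit with the replicate number as a block repeats the differences without wild-type replicate 6. Without wild-type replicate 6, 7 of 15 lay above 0 with a median of -0.0015, and without heterozygote replicate 1, 6 of 15 with a median of -0.0044. The difference from the nuclear-encoded list was not tested. Among the genes of the mitochondrial genome were mt-Co1 at 0.02 (SE 0.05), mt-Nd4l, the highest, at 0.25 (SE 0.09), and mt-Co3, the lowest, at -0.66. At an unadjusted p under 0.05, 2 of them were higher and 1 lower.

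Ribosomal protein genes lay mostly below 0. Of 79 members, 62 were below 0, the median was -0.04, and 1 was lower and 1 higher at an unadjusted p under 0.05. Without wild-type replicate 6, 72 were below 0, 18 lower and 0 higher at that level, and the median was -0.08. Without wild-type replicate 1, 54 were below 0 and the median was -0.02. Fitting the replicate number as a block gave 18 lower, but this is not a second check. Wild-type replicate 6 is alone in its block, so the differences are those without that library. Rps15a was at -0.19 (SE 0.07) and Rpl12 at 0.28 (SE 0.13). Such genes can share reads with pseudogenes, and the part of that in these values was not tested. Heat shock and unfolded protein genes had 22 of 28 below 0 and a median of -0.04 (leave-one-out -0.06 to -0.02). The inducible chaperone Hspa1b was at 254, 370, 287, 269 and 377 in heterozygotes and at 286 to 457 with a median of 397 in wild type, a difference of -0.33 (SE 0.13). Hspa5 was at -0.13 (SE 0.06). Without these 2, which were known from earlier results, no member was lower at an unadjusted p under 0.05.

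Splicing factors and nuclear-retained RNAs had 27 of 30 members above 0, 6 of them at an unadjusted p under 0.05, and a median of 0.06. With 1 library left out at a time 26 to 28 lay above 0, 1 to 9 of them at that level, and the median was 0.05 to 0.07. Malat1, a long RNA of nuclear speckles, was at 56324, 51131, 52406, 58420 and 54359 in heterozygotes and at 38807 to 64066 with a median of 45502 in wild type, a difference of 0.20 (SE 0.12). The splicing factors Srsf5 and Srsf3 were at 0.07 (SE 0.04) and -0.06 (SE 0.04). The list's mean log2 level ran between 12.68 and 12.78 among heterozygotes and between 12.61 and 12.70 among wild-type libraries, so the groups overlapped here too.

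Interferon response and MHC genes had 21 of 27 above 0 and a median of 0.06. Without heterozygote replicate 1 there were 17 of 27 and the median was 0.01, the low end of a leave-one-out range that reached 0.08. Tgtp1, an interferon-induced GTPase that was known from earlier results, was at 47.4, 29.6, 73.9, 85.5 and 59.2 in heterozygotes and at 18.99 to 28.8 with a median of 22.95 in wild type. The groups did not overlap, and the difference was 1.23 (SE 0.25, adjusted p = 0.618, limma). Without heterozygote replicate 2, its lowest heterozygote value, Tgtp1 passed the test over all genes. Usp18, which limits interferon signalling and was named after its values were seen, was at 27.2, 28.6, 38.8, 40.4 and 42.8 in heterozygotes and at 19.3 to 25.2 in wild type, a difference of 0.65 (SE 0.20). Ifit3 was at 0.11 (SE 0.11) and H2-K1 at 0.02 (SE 0.13). Complement and reactive glia genes had 11 of 13 above 0 (leave-one-out 9 to 12), with the intermediate filament Vim at 0.22 (SE 0.08) and the complement gene C4b at 0.20 (SE 0.12).

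The remaining lists held few members past an unadjusted p of 0.05. The proteasome list had 11 of 31 members above 0 and 2 lower at that level, and the cholesterol synthesis list 12 of 21 above 0 and none at that level. Axon guidance genes had 21 of 40 above 0, with the semaphorin receptor Nrp1 at 0.17 (SE 0.10) and the netrin relative Ntng1 at -0.18 (SE 0.11). Neuropeptide genes had 12 of 20 above 0, and 10 of 20 without wild-type replicate 6, where the median was -0.02 against 0.02 with all libraries. Among them were Npy at -0.06 (SE 0.06) and Cck at 0.08 (SE 0.05). Clock genes had 11 of 18 above 0, with Per2 at 0.09 (SE 0.07), and glucocorticoid response genes 10 of 16, with a median of 0.03. Without wild-type replicate 1 the glucocorticoid list had 6 of 16 above 0 and a median of -0.01. Its member Fkbp5, a stress-induced co-chaperone, was at 0.08 (SE 0.12). The list of dividing cell genes had a median of -0.13 with 5 of 17 above 0 (leave-one-out -0.17 to -0.04), but its members are scarce in adult cortex and their median half-width was 0.46. Pcna, a clamp of DNA replication, was at 0.00070 (SE 0.06). The 5 blood cell genes had a median of -0.15, with the haemoglobin gene Hbb-bs at -0.16 (SE 0.11).

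The genotype effect in prefrontal cortex was set against that in the other regions in 1 model of all 34 libraries. No difference of effects passed the test against hippocampus (0 of 16667 genes, 0%, with 604 at an unadjusted p under 0.05) or against striatum (0 of 16667, 0%, with 587). A threshold of 0.05 gives 833 by chance, and both counts lay below it. The model took the libraries as independent, although the same codes recur across regions. Whether that lowered the counts was not tested. A fit with code and genotype as a random block was among the alternatives that also left 0 genes. The smallest p against hippocampus belonged to Gpr149, an orphan receptor, and Nme7. The effect on Gpr149 was -0.92 (SE 0.36) in prefrontal cortex and 0.96 (SE 0.34) in hippocampus. Against striatum it belonged to Ogg1, which removes oxidized guanine from DNA, at -0.59 (SE 0.15) in prefrontal cortex and 0.32 (SE 0.13) in striatum, and to A930003O13Rik, a long non-coding RNA at 1.19 (SE 0.34) and -0.39 (SE 0.21). Sox13 was at 0.17 (SE 0.15) in hippocampus and 0.11 (SE 0.11) in striatum, and Abcb8 at -0.09 (SE 0.10) and 0.03 (SE 0.09).

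The core element bound by MYT proteins, AAGTTT, was searched on both strands of the 300 bases around each start in RefSeq's table (build GRCm38.p6), and 14.4% of 32851 windows held it. Of the tested genes matched to a window, 1605 held it and 10399 did not. Above 0 lay 52.8% of genes with the element, with a median of 0.0061, and 47.8% of those without, with a median of -0.0049. At an unadjusted p under 0.05 the shares were 4.92% and 5.26%. Base composition differs between promoters and was not matched. Mtmr11 and Dctpp1 are shown because their windows hold the element, 1 above and 1 below 0. The capitals mark it, and a match is not a binding site. The windows are chr3:96161720-96162019 on the plus strand for Mtmr11 and chr7:127260618-127260917 on the minus strand for Dctpp1, each 5′ to 3′.
Mtmr11: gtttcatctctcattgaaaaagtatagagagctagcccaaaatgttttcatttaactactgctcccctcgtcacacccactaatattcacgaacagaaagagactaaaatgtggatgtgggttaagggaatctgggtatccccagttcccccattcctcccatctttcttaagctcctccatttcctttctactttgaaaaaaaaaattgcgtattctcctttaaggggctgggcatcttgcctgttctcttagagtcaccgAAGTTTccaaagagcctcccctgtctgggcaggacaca
Dctpp1: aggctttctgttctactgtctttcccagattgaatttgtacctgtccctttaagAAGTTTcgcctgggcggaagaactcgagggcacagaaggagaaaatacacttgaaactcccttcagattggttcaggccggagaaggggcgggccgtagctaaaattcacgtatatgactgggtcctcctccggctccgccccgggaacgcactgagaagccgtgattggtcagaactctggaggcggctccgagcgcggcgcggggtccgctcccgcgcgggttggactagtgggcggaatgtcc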

How the data were processed

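Per the labels, total RNA was made into libraries with a TruSeq kit. The authors deposited 1 table with a signal value per gene and library, named there DESeq counts, that is, read counts after scaling, here named normalized counts. Per the submitters' processing notes, Salmon 1.1.0, R 3.6.2, DESeq2 1.26.0 and GRCm38 were used. The values are not whole, so they were not tested as raw counts and the edgeR branch of the planned test was not used. Depth before scaling is known only as an estimate, so the spread among libraries stands for precision. Of 18548 identifiers, 18533 matched the annotation and 15 did not.

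Values were taken to log2(value + 1) and tested with limma 3.58.1 in R 4.3.3 (trend, robust, 2-sided), Benjamini-Hochberg over genes with a mean of at least 10, threshold 0.05. Intervals are 95% and unadjusted. The code was tested on simulated data. Differences between regions were interactions in 1 model, without a term for the code. Lists were described by counts and medians, without a test. Members and lists were chosen with earlier results of these data known. Named genes were the MYT family and the first 3 tested members of each list. Each list's highest and lowest member with a mean of at least 100 was added. So were the 8 genes per direction, with means of at least 100, whose interval bound nearest to 0 lay farthest from it. The rest were the 2 smallest p per region difference and the 3 highest and lowest loadings on the first principal component. Tables used python 3.11.15, numpy 2.4.6 and pandas 2.3.3. Some genes that these rules pick are left out of the text.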

Additional observations from a re-analysis of the deposited data

Results flagged for a closer look

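In a group of 5 or 6 libraries, a library was taken as far from the others when its gap to the nearest made up more of the range than a 95% critical value allows. This picked 14 of 132 groups, 11 of 94 groups of list levels and 3 of 38 groups of genes. Chance picks about 1 in 20 groups, or 6.6 here, and lists that share a library are not independent. List levels are the mean log2 level of the tested members, and no explanation was tested.

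In heterozygote replicate 4 the parvalbumin and somatostatin interneuron list was at 9.53, the lowest of its group, where the others averaged 9.70. The microglia list stood at 9.45 in heterozygote replicate 3, against a mean of 9.55 in the rest of the group. In heterozygote replicate 3 the MYT family and repressor partners list had a level of 9.77, the lowest of its group, where the others averaged 9.83. The axon guidance list lay at 10.25 in heterozygote replicate 4, against a mean of 10.20 in the rest of the group. In heterozygote replicate 3 the neuropeptide list was at 8.75, the lowest of its group, where the others averaged 8.92. The monoamine and acetylcholine receptor list stood at 8.31 in heterozygote replicate 5, against a mean of 8.43 in the rest of the group. In heterozygote replicate 2 the proteasome list had a level of 10.94, the highest of its group, where the others averaged 10.85.

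In wild-type replicate 1 the mature oligodendrocyte list was at 10.51, the lowest of its group, where the others averaged 11.07. The meningeal fibroblast list stood at 8.59 in wild-type replicate 1, against a mean of 8.06 in the rest of the group. In wild-type replicate 1 the calcium channel list had a level of 11.67, the lowest of its group, where the others averaged 11.76. The nuclear-encoded respiratory chain list lay at 11.18 in wild-type replicate 1, against a mean of 11.04 in the rest of the group.

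mt-Co3 was at 129649 normalized counts in wild-type replicate 3, where the other libraries of the group averaged 86970. Aloxe3 was at 171 normalized counts in wild-type replicate 5, where the other libraries of the group averaged 90.1. Gm15387 was at 189 normalized counts in heterozygote replicate 3, where the other libraries of the group averaged 0.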

How the results depend on the processing

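Of 21 alternatives, 19 left 0 genes at an adjusted p under 0.05 (limma) in prefrontal cortex, among them another pseudocount, filter, scaling or error model. The exceptions were leaving out heterozygote replicate 2, with 2 genes (Tgtp1 and Gm29216), and keeping only the libraries whose codes begin with 35, with 1 gene (Mycbpap); the cause was not tested. Leaving out 1 library at a time gave 0 to 2 such genes, and 671 to 937 at an unadjusted p under 0.05. With the replicate number as a block there were 0 and 960. Wild-type replicate 6 was alone in its block, so the differences of that fit repeat those without this library. The labels do not say whether the numbers pair the libraries. Same-numbered deviations correlated at -0.008 to 0.119, and own number was the best match in 3 of 5. Each heterozygote library had 6 wild-type libraries to match, and these values do not settle whether the numbers pair them. Without wild-type replicates 1 and 6 together, chosen after seeing the data, there were 0 and 915. The differences of effects between regions stayed at 0 genes under the alternatives run for them. List medians kept their sign under all 21 alternatives in 16 of 47 lists and changed it in at least 1 in 31; 28 lists changed it with a single library left out. Of 5055 values of 240 named genes, 356 changed sign. Genes with means of 10 to 30 had intervals too wide to show differences under 0.71 at the median.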

Other observations

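Some genes followed the code in the column name across regions. These genes were chosen after their values were seen, and nothing in the labels ties a code to a mouse. Gm17081 and Gm5859, neighbours on GRCm38 chromosome 4 (42239725 to 42240202 and 42236859 to 42239182), led the first principal component of the cortical libraries, which held 21.5% of the variance and on which the genotypes overlapped. Gm17081 was at 569 and 545 normalized counts in heterozygote replicates 1 and 2 and at 624 and 503 in wild-type replicates 1 and 2, and listed at 0 in the other cortical libraries. In striatum the same 4 codes were at 195 and 178 in heterozygotes and at 115 and 136 in wild type.

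Pisd-ps1, a pseudogene, was at 1404 in the cortical wild-type library with the code 31-67M, against 1412 in hippocampus and 1352 in striatum, where that code stands on heterozygotes. Code 35-3M was at 668, 658 and 508 in the same order of regions, all labelled wild type. The Pisd-ps1 level of 31-67M was not particular to it. Code 35-2M was at 1550, 1330 and 1271 in that order, and code 35-1M at 1259, 1176 and 1133. Xlr3b was at 63.9, 36.3 and 22.4 in 31-67M, in the same order of regions. It was lower in code 35-2M, at 5.07, 12.3 and 18.3, and higher in code 35-4M, at 84.9, 108 and 73.7. Gm17081 was listed at 0 in 31-67M in each region, as it was in code 35-4M. Whether the libraries with the code 31-67M share a mouse or a genotype was not tested. Over 12671 genes, the library of another region most like a cortical library carried the same code in 6 of 21 pairs, where picking among the 11 or 12 libraries of that region at random would give 1.83. For 31-67M it was 0 of 2.

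Hist2h2aa2, listed at 0 in 3 of the 5 cortical heterozygotes, had a log2 difference of -6.36 (SE 1.37) in hippocampus and -5.14 (SE 1.49) in striatum, and a fold cannot be read from values listed at 0.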
